A study of Mus musculus with 12 samples.

Results

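Interferon-stimulated genes were followed in sorted mouse dermal fibroblasts from normal, inflamed and papilloma-bearing skin. The set was drawn up by name, from genes known to be induced by interferons, but with earlier results of these data known. In it 34 genes were named and 31 of them were measured, of 18193 genes on the arrays. Gbp5 and Ifi44 had no probe set paired with a single symbol in the annotation used here, and the probe set of Isg15 was shared with another gene, so these 3 were not analysed here. The samples were 12 arrays in 3 groups of 4. Normal fibroblasts came from wild-type mice, inflamed fibroblasts from InvEE mice, and papilloma fibroblasts from InvEE skin that was tumour-associated. The InvEE transgene expresses an activated MEK1 kinase from the involucrin promoter, which is active in differentiating epidermis and not in fibroblasts, so the transgene acts in the neighbouring epithelium. In all 3 groups the mice were 7-week-old males that carried a PDGFRα-H2B-eGFP allele, a nuclear green reporter of the fibroblast receptor gene Pdgfra, and GFP-positive cells were sorted from the back dermis. The labels do not say whether the replicates of a group were separate animals or which tumours the papilloma samples came from. The p-values here thus speak to differences among these RNA samples, part of whose spread may be technical. In sorted bulk RNA, fewer cells that express a gene and less of its RNA per cell cannot be told apart.

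Type I interferons act through the receptor Ifnar1 and Ifnar2 and the kinases Jak1 and Tyk2, which activate a complex of Stat proteins with Irf9 that binds the interferon-stimulated response element (ISRE) in promoters of antiviral genes such as the Ifit, Oas and Mx families. Interferon gamma acts through Ifngr1 and Ifngr2 and Stat dimers that bind the gamma-activated sequence (GAS), and it is the classic inducer of the guanylate-binding proteins (Gbp) and the immunity-related GTPases. Both programmes overlap, and many of these genes carry an ISRE and respond to either interferon. Fibroblasts express both receptors and are classic responder cells in interferon assays.

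The promoters of the members show this overlap in their letters. Windows from 250 bases before to 50 bases after the transcription start, from RefSeq for build GRCm38.p6, were available for 27 of the 34 members, which together had 33 windows. They were searched on both strands for the ISRE core, which is GAAA, 2 bases of any kind and GAAA, and for the GAS core, which is TTC, 3 bases of any kind and GAA. The ISRE core was found in 48.5% of the members' windows (16 of 33), against 3.44% of all 32851 windows in the table. The GAS core was found in 27.3% (9 of 33), against 8.3% of all windows. The first group below shows 100-base stretches of 6 members that were higher in papilloma fibroblasts in the tests reported further on, and the second those of 4 members that were not called there. Capitals mark the ISRE and GAS cores, on the gene's own strand or as the reverse complement, in which the ISRE core begins and ends with TTTC, and runs longer than a core hold cores that overlap. The stretches lie at chr19:34640749-34640848 (plus strand) for Ifit1, chr5:120907526-120907625 (minus strand) for Oas1a, chr8:71537545-71537644 (minus) for Bst2, chr7:104465194-104465293 (minus) for Trim30a, chr11:48871421-48871520 (minus) for Irgm1 and chr3:142559944-142560043 (plus) for Gbp3. Each ends upstream of the start site and is printed from the upstream end.
Ifit1: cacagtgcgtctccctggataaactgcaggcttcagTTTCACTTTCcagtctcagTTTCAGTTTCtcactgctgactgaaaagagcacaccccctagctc
Oas1a: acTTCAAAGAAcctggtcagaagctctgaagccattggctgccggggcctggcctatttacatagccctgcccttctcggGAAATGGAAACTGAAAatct
Bst2: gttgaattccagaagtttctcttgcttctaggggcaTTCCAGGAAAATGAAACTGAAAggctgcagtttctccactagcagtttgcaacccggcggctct
Trim30a: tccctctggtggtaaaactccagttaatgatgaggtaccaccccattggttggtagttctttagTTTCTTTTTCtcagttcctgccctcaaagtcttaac
Irgm1: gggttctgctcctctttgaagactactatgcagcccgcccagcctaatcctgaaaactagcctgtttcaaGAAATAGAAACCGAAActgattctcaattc
Gbp3: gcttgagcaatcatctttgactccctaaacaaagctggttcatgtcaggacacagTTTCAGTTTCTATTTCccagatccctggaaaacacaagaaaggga

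The stretches of the members not called lie at chr19:34583345-34583444 (plus strand) for Ifit3, chr3:142620559-142620658 (plus) for Gbp2, chr3:142530236-142530335 (plus) for Gbp7 and chr11:58199456-58199555 (plus) for Igtp.
Ifit3: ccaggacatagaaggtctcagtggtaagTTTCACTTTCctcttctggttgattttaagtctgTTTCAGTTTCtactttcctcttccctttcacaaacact
Gbp2: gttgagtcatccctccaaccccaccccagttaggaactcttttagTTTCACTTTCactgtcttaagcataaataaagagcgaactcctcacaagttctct
Gbp7: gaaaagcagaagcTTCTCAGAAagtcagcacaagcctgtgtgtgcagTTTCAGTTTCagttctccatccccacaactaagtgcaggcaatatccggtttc
Igtp: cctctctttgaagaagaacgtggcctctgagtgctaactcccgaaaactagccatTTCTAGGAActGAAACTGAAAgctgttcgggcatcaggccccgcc

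The 10 stretches were chosen from members with an ISRE core in their window, so each holds at least 1. Called members with a window but no ISRE core, such as Oasl2, Irf9 and Dtx3l, are not shown. A GAS core stands in those of Oas1a, Bst2, Gbp7 and Igtp. In Bst2 the GAS core overlaps the first ISRE core. In Ifit1 and Ifit3 the 2 ISRE cores stand apart, while in Oas1a, Bst2, Irgm1 and Gbp3 they overlap. Members called in at least 1 comparison had the ISRE core in 57.1% of their windows (8 of 14) and measured members that were not called in 37.5% (6 of 16). The GAS core stood in 14.3% and 37.5% of these windows. The interferon-gamma members (the Gbp genes and Igtp) had the ISRE core in 83.3% of their windows (5 of 6), and the Ifit and Oas members with a window in 42.9% (3 of 7). A match is a description of the letters, and none of these shares was tested.

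Papilloma fibroblasts had more RNA of a part of the set than either other group. Ifit1, Oas1a, Oasl2, Bst2, Trim30a, Irgm1 and Dtx3l were higher than in both normal and inflamed fibroblasts, by 1.98-fold (Bst2) to 5.12-fold (Ifit1) against normal. Against normal fibroblasts 9 of 31 members (29%) were called higher and 0 lower in limma, where 9.65% of all genes were called, 4.85% higher and 4.8% lower. Against inflamed fibroblasts 10 of 31 (32.3%) were called higher and 0 lower, where 6.71% of all genes were called, 3.67% higher and 3.04% lower. Both comparisons use the same 4 papilloma arrays, so their counts are not independent. At an unadjusted p under 0.05, in either direction, there were 17 and 20 of the 31 members, and 4075 and 4816 of all 18193 genes. In inflamed against normal fibroblasts 0 of 31 members were called, where 0.533% of all genes were called. There 4 members had an unadjusted p under 0.05 in limma, as had 2837 of all 18193 genes.

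The median log2 difference of the 31 members was 0.53 in papilloma minus normal, where the median of all genes was 0.04. It was 0.83 in papilloma minus inflamed, where the median of all genes was 0.12, and -0.44 in inflamed minus normal, where that of all genes was -0.09. In papilloma minus normal the members spread from -1.85 (Usp18) to 2.36 (Ifit1), with 22 above 0 and 9 below. In inflamed minus normal 25 of the 31 lay below 0, as did 11027 of all 18193 genes. Above 0 lay 9963 of all genes in papilloma minus normal and 11035 in papilloma minus inflamed. Scaling the arrays to 46 ribosomal protein genes moved every difference by -0.18 in inflamed minus normal, by 0.23 in papilloma minus normal and by 0.40 in papilloma minus inflamed. The directions of the 3 medians and of the called members stayed the same under that scaling. It raised the count of members called higher in papilloma than in inflamed fibroblasts to 19, and with it 91.4% of all genes called there were higher, against 54.7% without it. The same share went from 50.3% to 71.3% in papilloma minus normal and from 48.5% to 28.6% in inflamed minus normal.

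**Figure D1:**
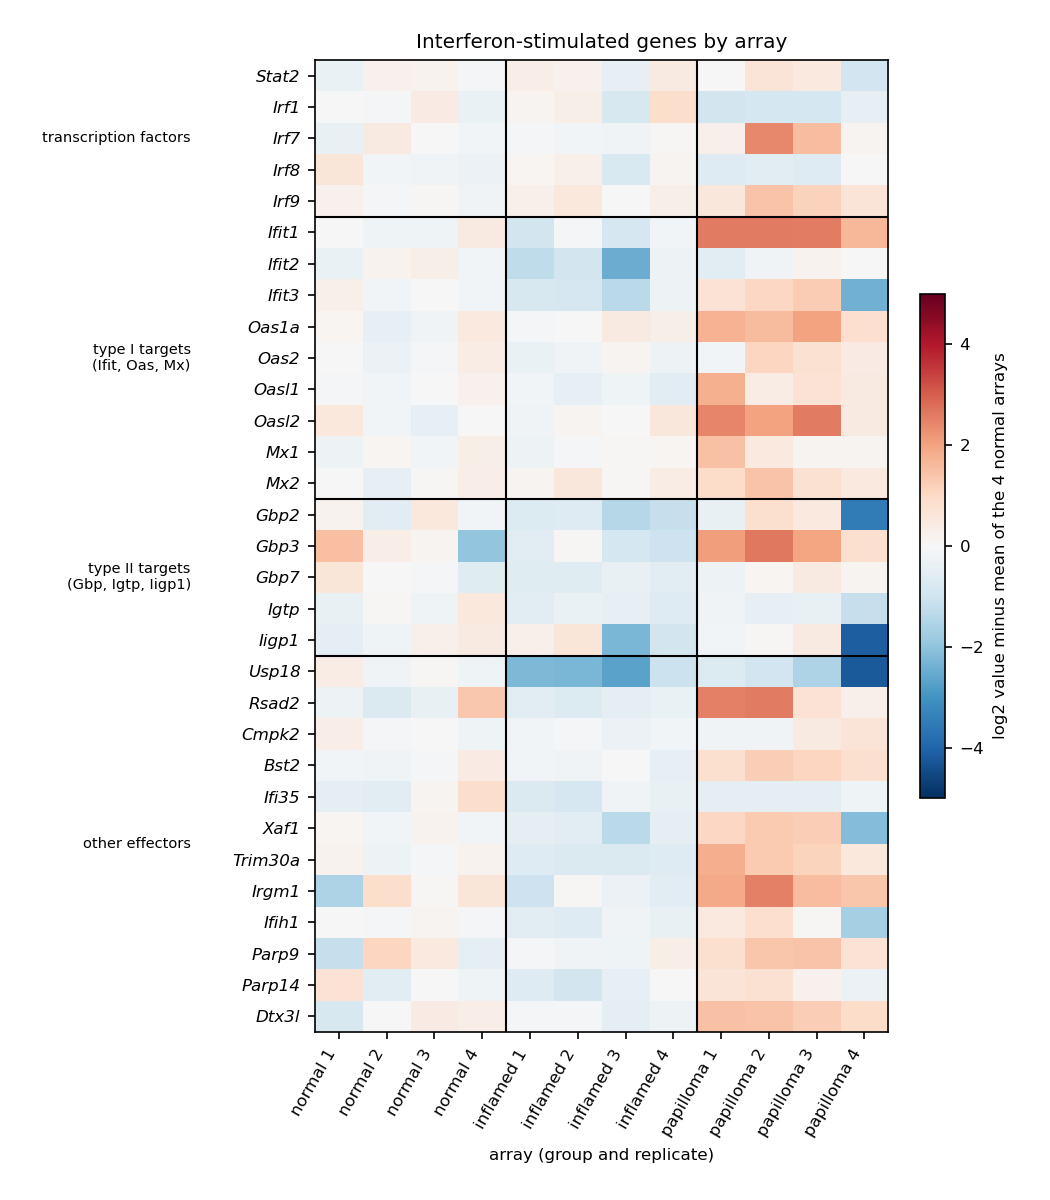
Heat map of the 31 measured members (rows, grouped by role) on the 12 arrays (columns), coloured by log2 value minus the mean of the 4 normal arrays. Red cells fill much of the papilloma columns for Ifit1, Oas1a, Oasl2, Bst2, Trim30a, Irgm1 and Dtx3l, while papilloma array 4 is blue for Ifit3, Gbp2, Iigp1, Usp18, Xaf1 and Ifih1.

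**Figure D2:**
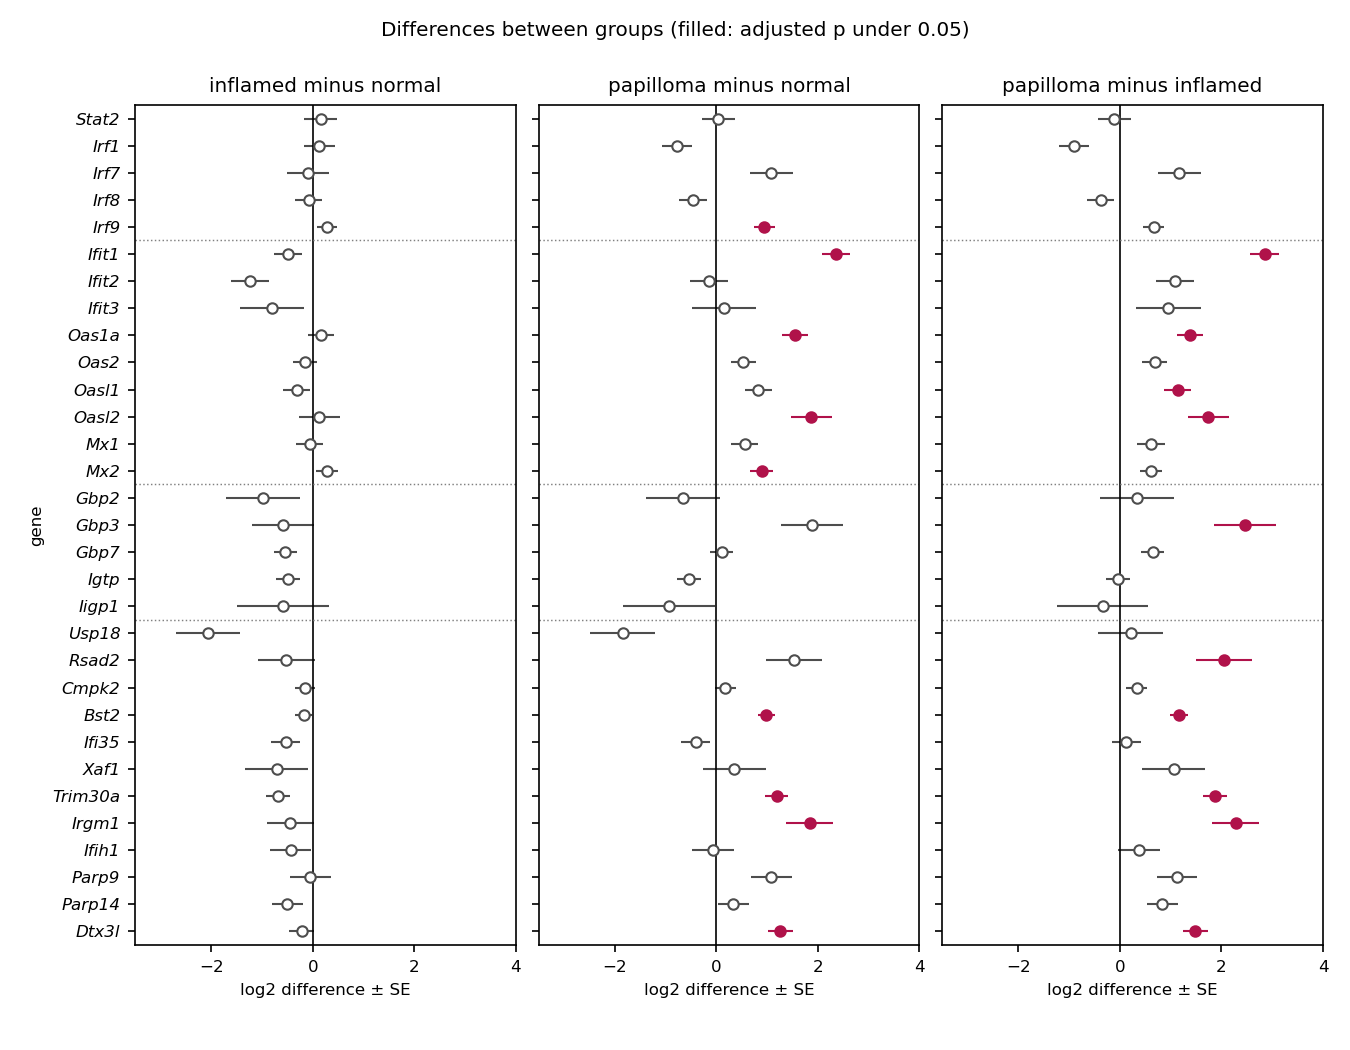
Log2 difference ± SE of each measured member in the 3 comparisons, from 1 limma fit to 4 arrays per group. Filled points passed an adjusted p of 0.05: none in inflamed minus normal, 9 in papilloma minus normal and 10 in papilloma minus inflamed, all of them above 0.

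Some members differed in how evenly the papilloma arrays carried the change. Papilloma array 4 gave the lowest value of its group in 22 of the 31 members, and in 27.2% of all genes. It gave the highest value in 4 of the 31 members, and in 45.1% of all genes. It also had the largest difference between the 3′ and 5′ Gapdh control probe sets, a measure of RNA integrity, at 3.76 on the log2 scale against a highest value of 3.37 elsewhere, and the smallest array weight, 0.18. The Gapdh difference also separated the papilloma group from the normal one. It was 2.29 to 3.76 on the papilloma arrays, 1.59 to 2.28 on the normal arrays and 1.62 to 3.37 on the inflamed arrays. Normal array 4 gave the highest value of its group in 41.3% of all genes. Its array weight, 0.28, was the next smallest after that of papilloma array 4. The part of RNA quality in the members' differences was not tested beyond a covariate. Without papilloma array 4, 14 members were called higher than in normal fibroblasts, the 9 above and Gbp3, Ifit3, Irf7, Rsad2 and Xaf1. Against inflamed fibroblasts 15 were called higher. In the same fits 9.85% and 6.63% of all genes were called, 5.10% and 3.63% higher.

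Among the transcription factors, 1 of 5 was called, in papilloma minus normal, where 9.65% of all genes were called. Irf9, the DNA-binding partner of the Stat proteins in the type I response, read 7.25, 6.98, 7.12 and 6.86 on normal arrays 1 to 4, on the normalized log2 scale used for all levels here. On the inflamed arrays it read 7.31, 7.60, 7.08 and 7.35, and on the papilloma arrays 7.63, 8.46, 8.20 and 7.70. Every papilloma value was above every value of the other groups. Irf9 rose by 0.95 ± 0.20 (SE, n = 4 and 4) against normal, 1.93-fold, with an adjusted p of 0.0113. Against inflamed fibroblasts the difference was 0.67 ± 0.20 with an adjusted p of 0.071.

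Irf7, the factor that amplifies type I interferon production, read 6.71, 7.52, 7.11 and 6.95 on the normal arrays and 6.96, 6.95, 6.92 and 7.12 on the inflamed arrays. On the papilloma arrays it read 7.32, 9.48, 8.63 and 7.20, so arrays 2 and 3 stood well above the rest and arrays 1 and 4 lay within the range of the normal group. Its difference from inflamed fibroblasts was 1.17 ± 0.42 (adjusted p = 0.111), the largest among members not called in that comparison. Without papilloma array 4 it was called, at 1.40 ± 0.40 (adjusted p = 0.0478) against normal and 1.49 ± 0.40 (adjusted p = 0.0488) against inflamed.

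Irf1, an early target of interferon gamma and a factor of its own, went the other way in value. It read 9.97, 9.96, 10.42 and 9.66 on the normal arrays, 10.15, 10.31, 9.20 and 10.87 on the inflamed arrays and 9.07, 9.12, 9.13 and 9.59 on the papilloma arrays. The 4 papilloma values lay below the 4 normal values, and the difference of -0.77 ± 0.30 had an adjusted p of 0.14. Without inflamed array 3 it was called in both papilloma comparisons, at -0.77 (adjusted p = 0.0446) against normal and -1.21 (adjusted p = 0.0113) against inflamed. Irf8, a factor best known from myeloid cells, differed by -0.46 ± 0.27 from normal (adjusted p = 0.354). Stat2, the Stat protein specific to the type I response, read 7.72, 8.25, 8.22 and 7.997 on the normal arrays, 8.38, 8.28, 7.65 and 8.50 on the inflamed arrays and 8.01, 8.71, 8.55 and 7.07 on the papilloma arrays. The groups overlapped, and its difference from normal, 0.04 ± 0.32, was the smallest of the uncalled members. The median of the 5 factors was 0.04 in papilloma minus normal, -0.11 in papilloma minus inflamed and 0.13 in inflamed minus normal, and the last 2 changed sign when scaled to ribosomal protein genes. The first 2 were 0.38 and 0.22 without papilloma array 4.

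Of the 9 members of the Ifit, Oas and Mx families, 4 were called higher than in normal and 4 higher than in inflamed fibroblasts. The family median was 0.83 against normal and 1.09 against inflamed, with 8 and 9 of the 9 above 0. Of all 18193 genes, 9963 and 11035 were above 0, and 4.85% and 3.67% were called higher. Several of these families, and the Gbp and Trim30 families, hold near-identical copies that 1 probe set may read together, so the named copy is uncertain. Ifit1, which binds viral RNA that lacks the host cap methylation, had the largest difference of the set. It read 7.61, 7.44, 7.42 and 8.10 on the normal arrays, 6.73, 7.57, 6.79 and 7.51 on the inflamed arrays and 10.25, 10.24, 10.21 and 9.29 on the papilloma arrays. All papilloma values lay above all others, with array 4 about 1 unit below its 3 neighbours. Ifit1 rose by 2.36 ± 0.28 against normal, 5.12-fold (adjusted p = 0.000258), and by 2.85 ± 0.28 against inflamed, 7.20-fold (adjusted p = 0.000126).

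Its relatives Ifit2 and Ifit3, which join Ifit1 in complexes, did not pass the test. Ifit2 read 7.67, 8.20, 8.29 and 7.86 on the normal arrays, 6.73, 7.07, 5.54 and 7.74 on the inflamed arrays and 7.43, 7.81, 8.18 and 8.02 on the papilloma arrays. The papilloma values lay inside or near the normal range, while 3 of the 4 inflamed values lay below it. Its difference was -1.23 ± 0.37 in inflamed minus normal (adjusted p = 0.156) and 1.09 ± 0.37 in papilloma minus inflamed (adjusted p = 0.1). Without inflamed array 4 the latter was 1.41 and was called (adjusted p = 0.0427).

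Ifit3 read 9.58, 9.20, 9.36 and 9.18 on the normal arrays, 8.54, 8.50, 7.999 and 9.07 on the inflamed arrays and 10.05, 10.35, 10.59 and 6.95 on the papilloma arrays. Papilloma arrays 1 to 3 stood above every other array and array 4 below every other array. With all arrays the difference from normal was 0.15 ± 0.63 (adjusted p = 0.925). Without papilloma array 4 it was 1.00 ± 0.23 (adjusted p = 0.0206), and 1.80 ± 0.23 against inflamed (adjusted p = 0.00128).

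The oligoadenylate synthetases sense double-stranded RNA and make the messenger that activates RNase L. Oas1a read 7.31, 6.79, 7.05 and 7.68 on the normal arrays, 7.14, 7.21, 7.65 and 7.49 on the inflamed arrays and 8.96, 8.80, 9.22 and 8.05 on the papilloma arrays. The papilloma values did not overlap with those of either other group. Oas1a rose by 1.55 ± 0.26 against normal, 2.93-fold (adjusted p = 0.0028), and by 1.38 ± 0.26 against inflamed (adjusted p = 0.00873). With the level of the poly-A spike controls as a covariate the second call was lost (adjusted p = 0.105). That level did not overlap between the inflamed arrays and the others. A call lost with it, here or below, thus does not by itself show a smaller difference.

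Oasl2, an Oas-like protein with ubiquitin-like domains, read 8.02, 7.35, 7.06 and 7.49 on the normal arrays and 7.32, 7.62, 7.47 and 8.03 on the inflamed arrays. On the papilloma arrays it read 9.91, 9.48, 10.09 and 7.92, and array 4 lay among the values of the other groups. Oasl2 rose by 1.87 ± 0.41 against normal (adjusted p = 0.0123) and by 1.74 ± 0.41 against inflamed (adjusted p = 0.0252). The second call was lost with the spike covariate (adjusted p = 0.0642) and without any 1 of inflamed arrays 1 to 3 or papilloma arrays 1 to 3, with differences of 1.50 to 1.75 and adjusted p of 0.051 to 0.081.

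Oasl1, an Oas-like protein known for restraining the translation of Irf7, read 5.67, 5.60, 5.74 and 5.97 on the normal arrays, 5.60, 5.35, 5.53 and 5.23 on the inflamed arrays and 7.52, 6.11, 6.48 and 6.18 on the papilloma arrays. Its papilloma values were above all others, with array 1 highest. Its normal and inflamed means were dim. It rose by 1.14 ± 0.27 against inflamed (adjusted p = 0.0256), and the difference from normal was 0.83 ± 0.27 (adjusted p = 0.0763). The call was lost with the spike covariate (adjusted p = 0.287) and without inflamed array 1, 2 or 4, at 1.08 to 1.20 (adjusted p of 0.0577 to 0.0747). That call was also lost with the Gapdh difference as a covariate. Oas2 did not pass either test, at 0.53 ± 0.24 (adjusted p = 0.226) and 0.68 ± 0.24 (adjusted p = 0.111), although without papilloma array 1 the difference from inflamed was called, at 0.91 (adjusted p = 0.0339).

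Mx2, a dynamin-like antiviral GTPase, was dim in all groups. It read 4.37, 3.92, 4.39 and 4.67 on the normal arrays, 4.46, 4.88, 4.41 and 4.70 on the inflamed arrays and 5.26, 5.76, 5.08 and 4.81 on the papilloma arrays. Papilloma values were above all normal values, while array 4 overlapped with the inflamed group. Mx2 rose by 0.89 ± 0.22 against normal (adjusted p = 0.0254), and the call was lost without papilloma array 1 or 2 or normal array 1 or 2, at 0.71 to 0.90 (adjusted p of 0.0559 to 0.0742), and with the replicate number as a block. Mx1, its relative, differed by 0.56 ± 0.27 from normal (adjusted p = 0.244).

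**Figure D3:**
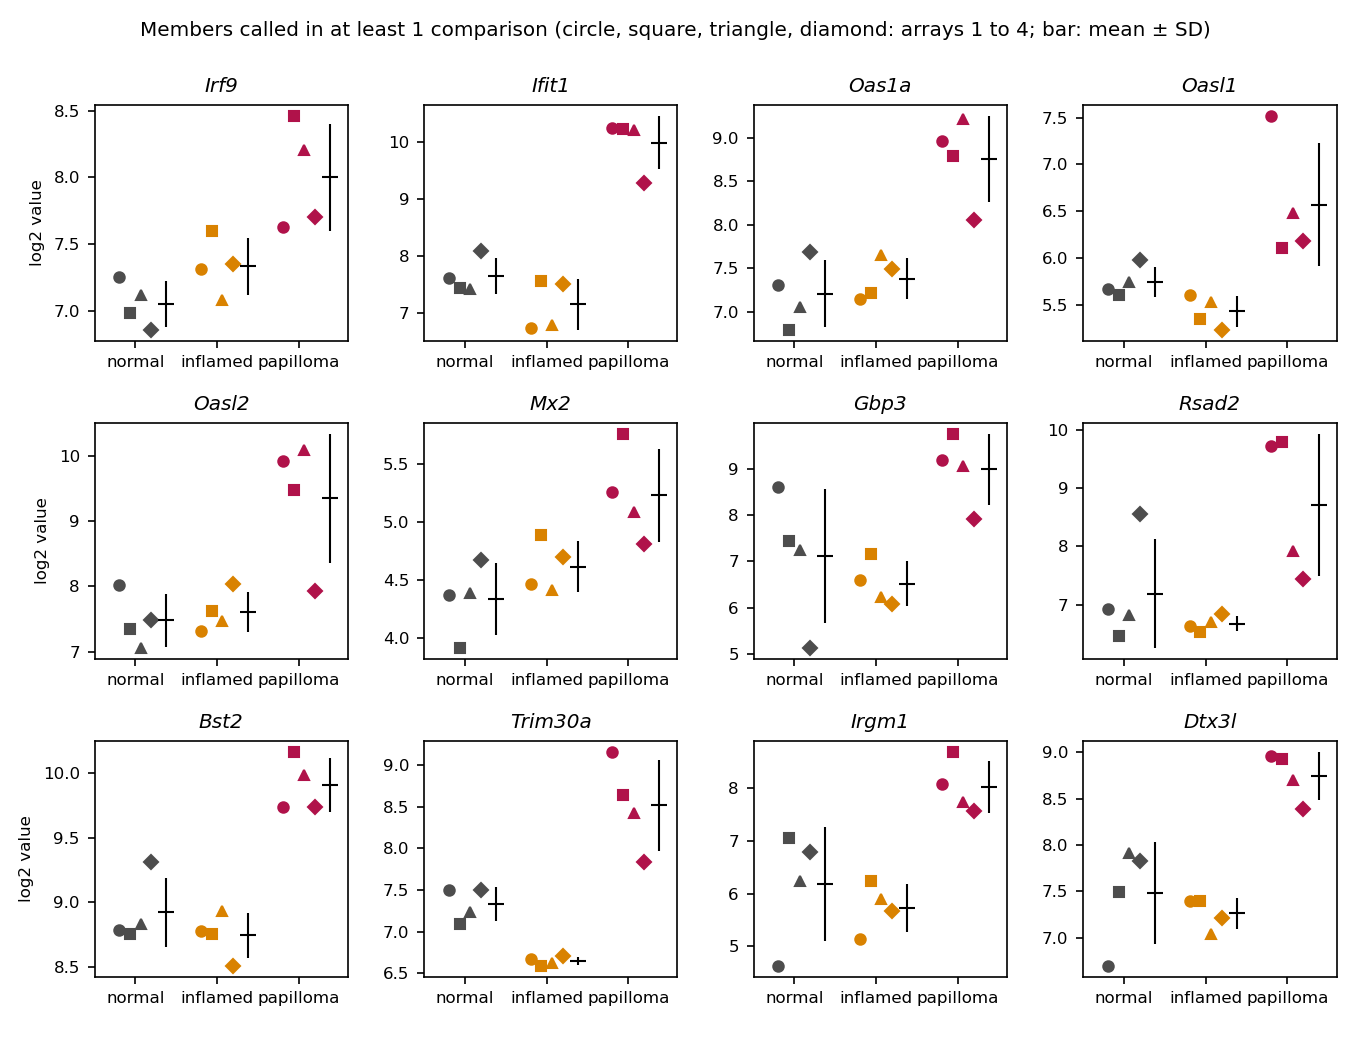
Normalized log2 value of the 12 members called in at least 1 comparison, 1 panel per gene with its own axis; symbols are arrays 1 to 4 and bars the mean ± SD of 4 arrays. In 11 of the 12 panels every papilloma value lies above every inflamed or every normal value, Oasl2 being the exception through array 4.

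Among the genes classically tied to interferon gamma the result depended on papilloma array 4. With all arrays, of 5 measured Gbp and GTPase members 0 were called against normal and 1 against inflamed. Their median was -0.53 against normal and 0.33 against inflamed. Of all genes 4.85% and 3.67% were called higher in these comparisons. With that array left out the medians were 0.13 and 0.72, so the first changed sign, and 1 of 5 (Gbp3) was called against normal and 2 of 5 (Gbp2 and Gbp3) against inflamed. With Irgm1, a related GTPase listed with the other effectors, 1 of 6 was called against normal and 2 of 6 against inflamed, and the medians were -0.21 and 0.49. Without array 4 those counts were 2 and 3 of 6, and the medians 0.21 and 1.00.

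Gbp3, a guanylate-binding GTPase that coats intracellular microbes, was the called member. It read 8.61, 7.44, 7.25 and 5.13 on the normal arrays, 6.60, 7.17, 6.23 and 6.08 on the inflamed arrays and 9.20, 9.76, 9.07 and 7.92 on the papilloma arrays. The papilloma values lay above all inflamed values, while the normal arrays were widely spread and array 1 overlapped with them. Gbp3 rose by 2.47 ± 0.61 against inflamed, 5.54-fold (adjusted p = 0.0334), and differed by 1.88 ± 0.61 from normal (adjusted p = 0.0788). The call against inflamed was lost without any 1 inflamed array or papilloma arrays 1, 2 or 3, at 2.21 to 2.68 (adjusted p of 0.0563 to 0.0925). The difference from normal was called without papilloma array 4, at 2.24 (adjusted p = 0.0472), without normal array 1, at 2.38 (adjusted p = 0.0292), and with the replicate number as a block (adjusted p = 0.0233).

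Gbp2, a close relative, read 8.54, 7.76, 8.87 and 8.21 on the normal arrays, 7.65, 7.70, 6.91 and 7.21 on the inflamed arrays and 7.96, 9.14, 8.83 and 4.87 on the papilloma arrays. Every inflamed value lay below every normal value, and papilloma array 4 was the lowest of all 12. The differences were -0.98 ± 0.73 in inflamed minus normal (adjusted p = 0.52) and 0.33 ± 0.73 in papilloma minus inflamed (adjusted p = 0.788). Without papilloma array 4 the latter was 1.28 ± 0.33 and was called (adjusted p = 0.0437). A second probe set of Gbp2 gave -0.46 ± 1.01 in inflamed minus normal and -0.03 ± 1.01 in papilloma minus inflamed with all arrays.

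Iigp1, a GTPase that attacks the vacuoles of parasites, read 8.21 to 9.15 on the normal arrays, 6.43 to 9.32 on the inflamed arrays and 8.58, 8.76, 9.16 and 4.59 on the papilloma arrays. Papilloma array 4 stood apart from its group here as well. The probe set used gave -0.93 ± 0.90 against normal, and a second probe set gave -0.12 ± 0.42. Igtp, a GTPase of the same family, read 8.23, 8.67, 8.38 and 9.11 on the normal arrays, 8.04, 8.27, 8.19 and 7.94 on the inflamed arrays and 8.42, 8.17, 8.22 and 7.45 on the papilloma arrays. The groups overlapped, and its difference of -0.04 ± 0.23 in papilloma minus inflamed was the smallest of the uncalled members there. Gbp7 differed by 0.10 ± 0.23 from normal and 0.64 ± 0.23 from inflamed (adjusted p = 0.106).

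On papilloma arrays 1 to 4 the mean deviation of the 9 Ifit, Oas and Mx members from their normal mean was 1.22, 1.15, 1.22 and 0.23, and that of the 5 Gbp and GTPase members was 0.23, 0.63, 0.59 and -1.56. The first was the higher on each of the 4 arrays, by 0.52 to 1.78. The gap lay between -0.26 and 0.55 on the normal arrays and between -0.02 and 0.85 on the inflamed arrays, so the ranges of the papilloma group and the others overlapped. These are means over members of 2 families of unequal size, and their difference was not tested.

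**Figure D4:**
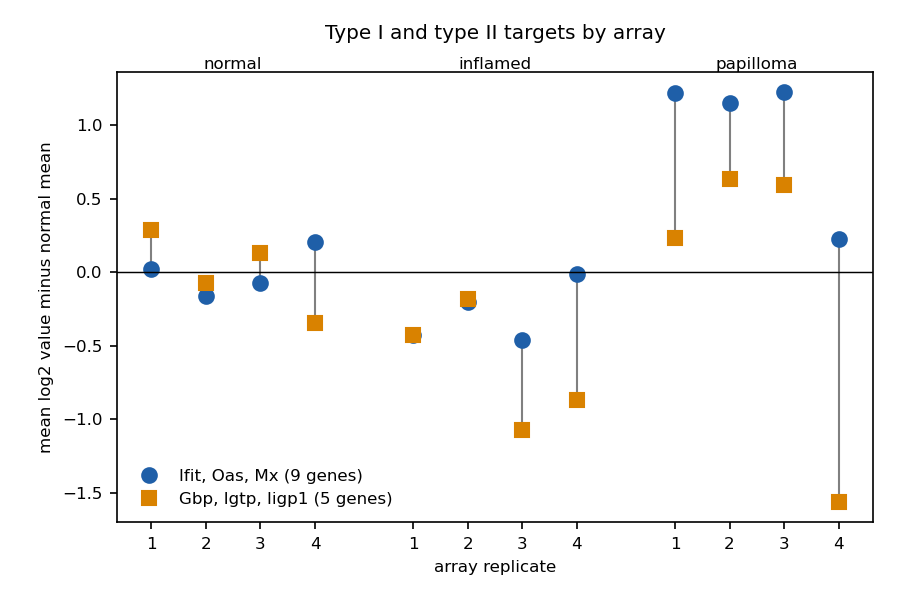
Mean deviation from the normal mean (log2) on each array for the Ifit, Oas and Mx members (circles) and for the Gbp, Igtp and Iigp1 members (squares), joined by a line. The circles of papilloma arrays 1 to 3 lie between 1.15 and 1.22 and the squares between 0.23 and 0.63, while on array 4 they lie at 0.23 and -1.56.

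Among the other effectors, 4 of 12 (33.3%) were called higher than in normal and 5 of 12 (41.7%) higher than in inflamed fibroblasts. Of all genes 4.85% and 3.67% were called higher. The medians of the effectors were 0.67 and 1.10. The counts were 6 and 7 and the medians 1.11 and 1.24 without papilloma array 4. Bst2, or tetherin, a membrane protein that holds budding virus at the cell surface, had the smallest error of the called members. It read 8.79, 8.75, 8.83 and 9.31 on the normal arrays, 8.78, 8.76, 8.94 and 8.51 on the inflamed arrays and 9.73, 10.16, 9.98 and 9.73 on the papilloma arrays. The papilloma values overlapped with neither group, and array 4 lay with its neighbours. Bst2 rose by 0.98 ± 0.17 against normal (adjusted p = 0.00361) and by 1.16 ± 0.17 against inflamed (adjusted p = 0.00197), a call lost with the spike covariate (adjusted p = 0.0988).

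Trim30a, a tripartite-motif protein that dampens Toll-like receptor signalling, read 7.50, 7.10, 7.23 and 7.50 on the normal arrays, 6.67, 6.59, 6.63 and 6.70 on the inflamed arrays and 9.16, 8.64, 8.43 and 7.84 on the papilloma arrays. The 3 groups did not overlap at all, with the inflamed arrays lowest and the papilloma arrays highest. Trim30a rose by 1.19 ± 0.23 against normal (adjusted p = 0.00734) and by 1.87 ± 0.23 against inflamed (adjusted p = 0.000609). The difference of -0.68 ± 0.23 in inflamed minus normal had an adjusted p of 0.199. A second probe set gave 1.86 ± 0.40 and 2.22 ± 0.40 in the papilloma comparisons, both called over all probe sets (adjusted p = 0.0126 and 0.00737).

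Irgm1, an immunity-related GTPase that restrains its relatives and takes part in autophagy, read 4.63, 7.05, 6.24 and 6.79 on the normal arrays, 5.14, 6.23, 5.89 and 5.67 on the inflamed arrays and 8.08, 8.68, 7.73 and 7.57 on the papilloma arrays. All papilloma values lay above all others, and normal array 1 was the lowest of the 12. The inflamed mean was dim. Irgm1 rose by 1.84 ± 0.46 against normal (adjusted p = 0.0262) and by 2.28 ± 0.46 against inflamed, 4.87-fold (adjusted p = 0.0129), a call lost with the spike covariate (adjusted p = 0.205). The call against normal was lost without papilloma array 1 or 2 or normal array 3, at 1.62 to 1.86 (adjusted p of 0.0534 to 0.0698). That call was also lost with the Gapdh difference as a covariate.

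Dtx3l, a ubiquitin ligase that works as a partner of Parp9, read 6.70, 7.49, 7.91 and 7.83 on the normal arrays, 7.39, 7.40, 7.04 and 7.22 on the inflamed arrays and 8.96, 8.92, 8.70 and 8.39 on the papilloma arrays. Its papilloma values overlapped with neither group. It rose by 1.26 ± 0.25 against normal (adjusted p = 0.00749) and by 1.48 ± 0.25 against inflamed (adjusted p = 0.0043), the latter call lost with the spike covariate (adjusted p = 0.098). A second probe set gave 0.95 ± 0.33 and 1.01 ± 0.33 and was not called. Parp9 itself read 6.28, 8.51, 7.92 and 6.97 on the normal arrays, 7.37, 7.23, 7.19 and 7.72 on the inflamed arrays and 8.22, 8.82, 8.85 and 8.13 on the papilloma arrays. The papilloma values were above all inflamed values and overlapped with the spread normal ones. The differences of Parp9 were 1.09 ± 0.40 from normal (adjusted p = 0.119) and 1.13 ± 0.40 from inflamed (adjusted p = 0.107), and in inflamed minus normal it had the smallest difference of the set, -0.04 ± 0.40. Without normal array 2 the first was called, at 1.45 (adjusted p = 0.0297).

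Rsad2, or viperin, an enzyme that makes a chain-terminating ribonucleotide, read 6.93, 6.46, 6.82 and 8.56 on the normal arrays, 6.63, 6.52, 6.70 and 6.84 on the inflamed arrays and 9.72, 9.80, 7.92 and 7.43 on the papilloma arrays. Papilloma arrays 1 and 2 stood about 3 units above the inflamed mean and arrays 3 and 4 closer to it, and normal array 4 overlapped with the papilloma group. Rsad2 rose by 2.04 ± 0.55 against inflamed (adjusted p = 0.0476), and the difference from normal was 1.53 ± 0.55 (adjusted p = 0.115). The call was lost without any 1 of 9 arrays (the inflamed arrays, papilloma arrays 1 and 2, and normal arrays 1 to 3), at 1.68 to 2.10 (adjusted p of 0.0564 to 0.12). The difference from normal was called without papilloma array 4, at 1.96 (adjusted p = 0.038), and without normal array 4, at 1.98 (adjusted p = 0.0343). The call against inflamed was also lost with values as deposited, with the mean of all probe sets and with the spike covariate (adjusted p = 0.461). The Gapdh difference as a covariate ended that call as well. Adjusted over all probe sets, none of the 3 probe sets was called against inflamed: the one used gave 2.04 (adjusted p = 0.052) and the others 0.96 and 1.56. Cmpk2, the neighbouring nucleotide kinase, differed by 0.33 ± 0.20 from inflamed (adjusted p = 0.31).

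Usp18 had the largest differences below 0. It encodes the protease that removes Isg15 from proteins and blocks the type I receptor, and it is itself induced by interferon. It read 9.55, 8.99, 9.22 and 8.97 on the normal arrays, 6.95, 6.91, 6.51 and 8.12 on the inflamed arrays and 8.49, 8.23, 7.64 and 4.98 on the papilloma arrays. Both InvEE groups lay below every normal value, with papilloma array 4 lowest. The difference was -2.06 ± 0.63 in inflamed minus normal (adjusted p = 0.162) and -1.85 ± 0.63 in papilloma minus normal (adjusted p = 0.0958). Without papilloma array 4, which leaves the first difference as it is and lowers the estimated spread, Usp18 was called lower in inflamed than in normal fibroblasts (SE 0.32, adjusted p = 0.0189), and its difference in papilloma minus normal was -1.06 ± 0.35 (adjusted p = 0.0817).

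Xaf1, a protein tied to interferon-induced cell death, read 9.76, 9.52, 9.82 and 9.53 on the normal arrays, 9.19, 9.10, 8.33 and 9.17 on the inflamed arrays and 10.70, 10.95, 10.89 and 7.51 on the papilloma arrays. Papilloma arrays 1 to 3 stood above every other array, array 4 below, and the inflamed values lay below the normal ones. With all arrays it was not called, at 0.35 ± 0.62 against normal. Without papilloma array 4 it was called at 1.19 ± 0.21 against normal (adjusted p = 0.00475) and 1.90 ± 0.21 against inflamed (adjusted p = 0.000476). A second probe set of Xaf1, which averaged only 4.67 over the 12 arrays, gave 0.05 ± 0.19 and -0.004 ± 0.19 with all arrays. Ifih1, the RNA sensor Mda5, read 7.98, 7.88, 8.13 and 7.94 on the normal arrays, 7.46, 7.32, 7.81 and 7.60 on the inflamed arrays and 8.47, 8.82, 8.05 and 6.33 on the papilloma arrays. Array 4 was again the lowest, and without it the difference of Ifih1 from inflamed was 0.90 ± 0.19 (adjusted p = 0.0175) instead of 0.37 ± 0.41. Parp14 differed by 0.83 ± 0.31 from inflamed (adjusted p = 0.118). Ifi35 differed by -0.41 ± 0.28 from normal, and of its 2 other probe sets 1 gave -1.43 ± 0.34, called lower over all probe sets (adjusted p = 0.0207), and the other -0.17 ± 0.21.

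In inflamed fibroblasts the members lay mostly below the normal mean, and 0 of 31 passed the test. The groups did not overlap for 6 of 31 members (19.4%), all lower in inflamed: Ifit3, Gbp2, Usp18, Xaf1, Trim30a and Ifih1. Of all genes 15.3% did not overlap, 10.2% lower and 5.07% higher. The 7 markers of MHC class II and dendritic cells moved with this pattern in value: all 7 lay below 0 in inflamed minus normal, with a median of -0.63, 5 at an unadjusted p under 0.05 and 0 called in limma. Their mean level was 7.72 to 8.21 on normal, 6.86 to 7.92 on inflamed and 7.18 to 7.58 on papilloma arrays, and H2-Ab1 was called lower in papilloma than in normal, by -1.60 ± 0.42 (adjusted p = 0.0319). Other lists fell as well in inflamed minus normal. Below 0 lay 7 of 7 T and NK cell markers (median -0.24), 7 of 8 macrophage markers (-0.46) and 7 of 8 fibroblast markers (-0.18). Above 0 lay 5 of 6 keratinocyte and 4 of 5 endothelial markers. Of all 18193 genes 11027 were below 0. The part of any of these markers' cells in the members' differences was not tested. On the inflamed arrays the median deviation of the members from the normal mean was -0.29 ± 0.10 (SD, n = 4), against -0.03 ± 0.07 on the normal and 0.64 ± 0.37 on the papilloma arrays. In papilloma minus normal the groups did not overlap for 9 members higher and 2 lower (Irf1 and Usp18), where 13.8% of all genes did not overlap, 7.22% of them higher and 6.56% lower as shares of all genes. In papilloma minus inflamed 14 members did not overlap, all higher, where the share of all genes was 21.1%, with 14.5% higher and 6.66% lower.

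Upstream of the members no ligand or receptor passed the test. Of 6 measured interferon genes 0 were called in any comparison, and 0, 0 and 1 had an unadjusted p under 0.05 in limma. Ifnb1, the interferon beta gene, was dim, averaging 4.87 in normal fibroblasts, 4.64 in inflamed and 5.10 in papilloma ones, and so was Ifng, at 4.40, 4.47 and 4.49. Of 10 measured receptor, kinase and Stat genes 0 were called, with 4, 1 and 1 at an unadjusted p under 0.05. Of all 18193 genes 2837, 4075 and 4816 were under that p. Ifnar1 differed by -0.51 ± 0.18 in inflamed minus normal and -0.33 ± 0.18 in papilloma minus normal, and Ifngr1 by -0.87 ± 0.33 and -0.73 ± 0.33.

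Of 6 measured negative regulators, Socs3, an inhibitor of Jak signalling, was lower in papilloma than in inflamed fibroblasts, by -2.08 ± 0.48 (adjusted p = 0.0243). Its mean over 4 arrays was 9.51 ± 0.83 (SD) in normal fibroblasts, 11.2 ± 0.28 in inflamed and 9.12 ± 0.99 in papilloma ones, so the inflamed mean was the highest. The difference of Socs3 in inflamed minus normal, 1.69 ± 0.48, was not called (adjusted p = 0.137). Ptpn11, a phosphatase, was higher in papilloma than in normal by 0.65 ± 0.17 (adjusted p = 0.0295). Of 17 sensors, adaptors and further regulatory factors, Irf5 rose by 1.18 ± 0.26 against normal (adjusted p = 0.0145). Irf2, a factor that competes with Irf1 for its sites, was lower in papilloma fibroblasts, by -1.51 ± 0.37 against normal (adjusted p = 0.024) and -1.45 ± 0.37 against inflamed (adjusted p = 0.0372).

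A further list of 49 interferon-induced genes outside the set, 44 of them measured, was mixed against normal fibroblasts and more one-sided against inflamed ones. Against normal 5 (11.4%) were called higher and 3 lower, with a median of 0.06. Of all genes 4.85% were called higher and 4.8% lower there, with a median of 0.04. Against inflamed 8 (18.2%) were called higher and 0 lower, with a median of 0.41 and 37 of the 44 above 0. Of all genes 3.67% were called higher and 3.04% lower there. Their median was 0.12, and 11035 of 18193 were above 0. Rtp4, a chaperone of receptors, rose by 2.50 ± 0.19 against normal (adjusted p = 1.23e-05), from 7.75 ± 0.14 (SD, n = 4) to 10.25 ± 0.32, and its papilloma values overlapped with neither group. Lgals3bp, a secreted galectin-binding protein, rose by 3.29 ± 0.28 (adjusted p = 2.45e-05), from 9.49 ± 0.44 to 12.8 ± 0.44, and Ifi27l2a by 3.57 ± 0.63 (adjusted p = 0.00399). The other genes called against normal, named after their values were seen because they were few, were Ifi47 (1.37) and Eif2ak2 (1.10), the kinase PKR, among those higher than in normal. Casp1 (-1.47), Casp4 (-1.62), both inflammatory caspases, and Lgals9 (-1.57) were the lower ones. The 8 genes higher than in inflamed fibroblasts were the same 5 and Sp110 (1.27), Ube2l6 (1.16) and Oas3 (0.66). Casp4 was also the 1 gene of this list called in inflamed minus normal, by -1.84 ± 0.28 (adjusted p = 0.0211). Genes of MHC class I processing, which both interferons induce, had 0 of 10 called in each comparison, with medians of -0.57, -0.49 and 0.03. At an unadjusted p under 0.05 in limma there were 5, 4 and 2 of them, and 2837, 4075 and 4816 of all 18193 genes.

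The cells carried the label's markers: 8 of 8 fibroblast markers were above the dim limit in every group, with a mean level of 12.9 to 13.3 over the 12 arrays. Markers of other cells were lower as means of each list, and in part moved with the groups. Single markers were not all lower. In normal fibroblasts the macrophage marker Csf1r averaged 11.77 and the MHC class II marker Cd74 10.34, both above Pdgfra at 9.94. In inflamed fibroblasts Csf1r averaged 10.49, Cd74 8.35 and Pdgfra 10.62. The mean level of 6 keratinocyte markers was 6.64 to 7.13 on normal, 8.23 to 9.44 on inflamed and 7.39 to 9.03 on papilloma arrays, and 2 of 6 (Krt14 and Dsp) were called higher in papilloma than in normal. The mean of 8 macrophage markers was 6.64 to 7.13, 6.16 to 6.83 and 6.30 to 6.91, and 5 of 8 lay below 0 in papilloma minus normal and 2 of 8 in papilloma minus inflamed. Ptprc and Adgre1 were dim in every group, and Csf1r was called lower in papilloma than in normal. Mrc1 differed by 1.47 ± 0.70 from normal (adjusted p = 0.245) and 1.98 ± 0.70 from inflamed (adjusted p = 0.11), and C1qa by 0.64 ± 0.19 from inflamed (adjusted p = 0.0718), both without overlap in papilloma minus inflamed. Of 7 T and NK cell and 4 plasmacytoid dendritic cell markers 0 were called in any limma comparison, with at most 2 in each list at an unadjusted p under 0.05. Of 4 neutrophil markers S100a9 was called higher in papilloma than in both groups, by 1.11 ± 0.24 against normal. Poly-A spike controls averaged 9.86 ± 1.13 (SD, n = 4) on normal, 7.76 ± 0.29 on inflamed and 10.3 ± 1.03 on papilloma arrays. The highest inflamed level, 8.16, lay below the lowest level of the other groups, 8.72. The spike level and the inflamed group thus cannot be fully told apart in a fit. With this level as a covariate 3 members (Ifit1, Gbp3 and Trim30a) were called in papilloma minus inflamed. The part of keratinocyte RNA and of the spike level in the members' differences was not tested further.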

How the data were processed

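Labelled RNA of 12 sorted fibroblast samples was measured on Affymetrix mouse arrays, 1 array a sample. The authors deposited log2 values per probe set, as the values themselves show, from 2.08 to 14.955. The submitters' processing notes name limma. How background was corrected and arrays were normalized is not given in the sources used here, so the size of differences of dim genes depends on unstated steps. Quartiles of the arrays differed by up to 0.284, so the values were quantile normalized. Of 45101 probe sets, 34945 had 1 gene symbol in the platform annotation, 932 several and 9160 none, and 64 were controls. Each gene was represented by its probe set with the highest mean, which gave 18193 genes. No dim genes were left out. A group mean under 6.16, the 40th percentile of probe-set means, is called dim.

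One limma model (version 3.58.1, in R 4.3.3) took in all 12 arrays with a mean per group and moderated variances. Genes with two-sided p-values were called at a Benjamini-Hochberg adjusted p under 0.05 over all genes. The script was tested on simulated data. The members, their sub-lists, the pathway and marker lists and the naming rule were chosen with earlier results of these data known. All called members were named with all values, as were the uncalled members with the 3 largest differences and the smallest in each comparison. Of the pathway lists, genes with the smallest adjusted p were named, plus Ifnb1, Ifng, Ifnar1 and Ifngr1. The alternatives were scaling to ribosomal protein genes, no quantile normalization, array weights, spike-in or Gapdh covariates, other probe-set rules, a filter on dim genes, a variance trend, the arrays of 1 comparison alone, a replicate block, and leaving out each array. The labels do not say whether arrays with the same replicate number share an animal, litter or day, and the main fit treated them as unpaired. The deviations of same-numbered arrays correlated between -0.09 and 0.18, which cannot settle the question. No 2 arrays shared more than 0.253% of their values, so none was a copy of another. Each counted as 1 replicate, although this cannot show that they came from separate animals. Promoter windows came from RefSeq's table for GRCm38.p6.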

Additional observations from a re-analysis of the deposited data

Results flagged for a closer look

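In 9 of 93 groups of 4 arrays, 1 for each member and group, 1 array stood far from the other 3, where chance flags about 1 in 20 groups. Papilloma array 4 was the distant array in 6 of the 9. It was the lowest of its group for Ifit1, at 9.289 against 10.212 for the nearest array, for Ifit3 (6.946 against 10.047), for Iigp1 (4.591 against 8.578) and for Xaf1 (7.506 against 10.699). It was the highest of its group for Irf1, at 9.588 against 9.127, and for Irf8, at 7.104 against 6.511. Inflamed array 3 was the lowest of its group for Xaf1, at 8.328 against 9.102, and the highest for Gbp7, at 8.262 against 8.043. Normal array 4 was the highest of its group for Bst2, at 9.313 against 8.83.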

How the results depend on the processing

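Of 19 called differences of the members, 9 kept their call in every alternative that could be computed and 0 changed sign: Ifit1 and Trim30a in both papilloma comparisons, and Irf9, Oas1a, Oasl2, Bst2 and Dtx3l against normal. Counts of called members in papilloma minus normal ranged from 7 to 14 when each array was left out, and their median from 0.29 to 0.96. That median was 0.84 with array weights and 0.89 with the Gapdh covariate, an alternative chosen after seeing the data. In papilloma minus inflamed the count, 10 in the report, was 19 when scaled to ribosomal protein genes, 21 with array weights (1 of them lower, Irf1) and 3 with the spike covariate, and ranged from 6 (without inflamed array 1 or 2) to 15 (without papilloma array 4) when each array was left out. The median there was 1.23 when scaled to ribosomal protein genes, 1.39 with the spike covariate and 1.13 with the Gapdh covariate. All of these were above the 0.83 of the main fit, so the fewer calls with the spike covariate did not come with a smaller median. In inflamed minus normal the count was 3 with array weights (Gbp7, Trim30a and Usp18, all lower) and 1 (Usp18) when only these 8 arrays were fitted, and 0 to 1 when each array was left out. With a replicate block 0, 9 and 8 members were called in the 3 comparisons, in the order inflamed minus normal, papilloma minus normal, papilloma minus inflamed. The block ended the calls of Mx2 against normal and of Oasl2 and Rsad2 against inflamed and added Gbp3 against normal. The Gapdh covariate ended the calls of Irgm1 against normal and of Oasl1 and Rsad2 against inflamed. It added Gbp3 against normal and Irf9 against inflamed. Fitting only the arrays compared ended the calls of Irgm1 and Mx2 against normal and of Oasl1, Oasl2 and Rsad2 against inflamed. It added Parp9 against inflamed. A filter on dim genes left 28 members. Signal over background limits Mx2, Mx1, Oasl1 and Irgm1, which were dim in at least 1 group.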

Other observations

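Chemokines that interferon gamma induces were spread widely within groups. Over 4 arrays each, Cxcl10 averaged 7.72 ± 1.08 (SD) in normal fibroblasts, 8.30 ± 0.79 in inflamed and 8.79 ± 1.21 in papilloma ones, and Cxcl9 6.87 ± 0.90, 5.83 ± 1.79 and 7.33 ± 1.92. Neither was called in any comparison in limma, with adjusted p of 0.337 to 0.848 for Cxcl9 and 0.369 to 0.667 for Cxcl10. They were chosen for mention after their values were seen. Socs1, the feedback inhibitor that interferon gamma induces, averaged 6.35 ± 0.20, 5.89 ± 0.06 and 6.13 ± 0.21, and every inflamed value lay below every normal value, with an adjusted p of 0.176. Ciita, the master factor of MHC class II genes, differed by -0.43 ± 0.23 in inflamed minus normal (adjusted p = 0.373).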
